A study of Mus musculus with 12 samples.

Results

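The genes described here are 37 genes of DNA replication and mitosis in hepatocytes, the main cells of the liver, from mice treated with the retinoid X receptor (RXR) agonist bexarotene. They were taken by mouse symbol from a table of 26748 gene identifiers, and all 37 were present. They fall into 10 genes of origin licensing and the replicative helicase, 6 of polymerases and the replication fork, 4 of nucleotide supply, 6 cyclins, kinases and transcription factors, and 11 of mitosis. A gene was tested where it had at least 1 TPM (a transcript level scaled for transcript length and library total) in at least 3 libraries, which left 28 of the 37 members and 11018 genes in all. By role, 8 of 10 licensing, 3 of 6 fork, 4 of 4 nucleotide supply, 5 of 6 cyclin and kinase and 8 of 11 mitosis members were tested. The 9 members not tested were Cdc6, Gins2, Pola1, Lig1, Uhrf1, Foxm1, Mki67, Bub1 and Kif11. A gene can reach the limit through the group in which it is high, so medians are given over all 37. Ccna2, Ccnb1, Ccnb2, Top2a, Plk1, Aurka, Aurkb and Birc5 reached 1 TPM only in libraries of mice given bexarotene. Counts among the 28 tested members therefore partly follow from this filter, and are given as description.

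The study holds 12 libraries of hepatocyte RNA from male C57bl/6 mice, 3 in each of 4 groups, made with a stranded mRNA kit. The groups are floxed mice given bexarotene (treated floxed), floxed mice without it (floxed control), hepatic RXRα-knockout mice given bexarotene (treated knockout) and knockout mice without it (knockout control). Bexarotene, written bexaratene in the labels, was given at 100 mg/kg once a day for 5 days. The Cre line behind the knockout, the age of the mice and the treatment of the controls are not given in the sources used here. Libraries are named by their column numbers, which are 1, 3 and 4 for both floxed groups, 1, 2 and 3 for treated knockout and 1, 2 and 5 for knockout control, and values below follow that order. Rxra, the targeted gene, had 26.13 to 27.81 TPM in treated knockout libraries and 79.60 to 85.34 TPM in treated floxed libraries. It had 26.89 to 33.06 TPM in knockout control libraries and 79.54 to 86.05 TPM in floxed control libraries, so no knockout library reached a floxed one. Some Rxra RNA is still counted in the knockout libraries.

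Within a group, the log2 values of floxed control libraries 1 and 3 had a spread above that of read counting of 0.0513 (SD), and the 3 treated knockout libraries by 0.0394 to 0.0748. The other pairs differed by 0.152 to 0.439. Libraries under a limit of 0.1 were averaged and counted as 1 sample, which leaves 3 treated floxed, 2 floxed control, 1 treated knockout and 3 knockout control samples. For treated knockout the fit therefore borrows its spread from the other groups. The labels do not say that samples came from separate animals, so p-values reflect the spread among these samples alone, which may be technical. Counts were not given, so the depth behind each value is unknown. Between 9713 and 10470 genes reached 1 TPM in each library. Defining markers of hepatocytes summed to 66589 to 85918 TPM in every library, those of stellate cells to at most 4.32 TPM and those of bile duct cells to at most 4.73 TPM. Floxed control 4 and treated floxed 4 stood apart from the libraries of their own groups, with summed levels of 12 macrophage markers of 83.6 and 63.1 TPM. The floxed Ube2c result, the number of called members and some medians over all members are given below also without them. Floxed differences of most other members are given only with them.

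Adult hepatocytes rarely divide, but can re-enter the cell cycle after injury, loss of liver mass or exposure to mitogens. Before DNA synthesis, Cdc6 and Cdt1 load the MCM helicase at replication origins, Cdc45 and the GINS complex switch the helicase on, and transcription of many of these genes is driven by E2F factors. Later, a complex that binds the cell cycle homology region (CHR) of promoters, often beside CCAAT boxes, drives genes for the G2 phase and mitosis. Cdk1 with B-type cyclins starts mitosis, and the anaphase-promoting complex, with Cdc20 and Ube2c, ends it by marking cyclins for destruction.

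The promoters of 6 members show these elements, and were chosen because the results below turn on these genes. Each sequence is the stretch of 160 bases directly upstream of the RefSeq transcription start, 5′ to 3′ on the gene's own strand, from the RefSeq promoter table of build GRCm38.p6. Capitals mark CCAAT boxes (CCAAT or ATTGG), CHR elements (TTTGAA or TTCAAA) and E2F sites (TTTCCCGC, TTTCGCGC, TTTGCCGC or TTTGGCGC on either strand). The stretches are Ube2c at chr2:164769769-164769928, plus strand, Cdc20 at chr4:118437344-118437503, minus strand, Cdk1 at chr10:69352913-69353072, minus strand, Rrm2 at chr12:24708094-24708253, plus strand, Mcm5 at chr8:75109349-75109508, plus strand, and Mcm6 at chr1:128359706-128359865, minus strand.
Ube2c: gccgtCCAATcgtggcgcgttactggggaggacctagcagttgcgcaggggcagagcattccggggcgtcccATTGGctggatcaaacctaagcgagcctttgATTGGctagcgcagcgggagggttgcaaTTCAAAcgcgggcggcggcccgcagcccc
Cdc20: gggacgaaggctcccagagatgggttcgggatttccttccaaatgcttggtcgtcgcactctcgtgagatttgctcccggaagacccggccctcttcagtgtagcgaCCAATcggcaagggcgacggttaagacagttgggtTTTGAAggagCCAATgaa
Cdk1: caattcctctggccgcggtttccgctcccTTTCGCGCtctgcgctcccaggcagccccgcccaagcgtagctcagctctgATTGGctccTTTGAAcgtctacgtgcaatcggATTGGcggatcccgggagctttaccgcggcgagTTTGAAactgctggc
Rrm2: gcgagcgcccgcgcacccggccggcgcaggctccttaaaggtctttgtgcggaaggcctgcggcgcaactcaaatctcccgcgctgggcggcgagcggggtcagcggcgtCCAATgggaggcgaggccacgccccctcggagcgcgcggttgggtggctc
Mcm5: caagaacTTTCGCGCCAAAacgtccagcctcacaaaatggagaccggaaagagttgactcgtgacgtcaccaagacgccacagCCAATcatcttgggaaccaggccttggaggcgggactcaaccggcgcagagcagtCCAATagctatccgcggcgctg
Mcm6: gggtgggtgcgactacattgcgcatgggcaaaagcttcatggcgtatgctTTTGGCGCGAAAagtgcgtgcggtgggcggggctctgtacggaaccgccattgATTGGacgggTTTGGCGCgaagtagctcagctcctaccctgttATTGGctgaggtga

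The printed Ube2c stretch holds 1 CHR element and 3 CCAAT boxes, and that of Cdc20 holds 1 CHR element and 2 CCAAT boxes. The Cdk1 stretch holds 2 CHR elements, 2 CCAAT boxes and 1 E2F site. Mcm5 and Mcm6 have E2F sites and CCAAT boxes but no CHR element in this window, and in each gene 1 capital E2F stretch reads as overlapping sites on both strands. Rrm2 shows 1 CCAAT box and neither other motif. Promoters were found for 32 of the 37 members, and over 250 upstream bases 10 of the 32 held a CHR element (31.2%, against 16.3% of 27025 promoters in the table). E2F sites were found in 6 of the 32 (18.8%, against 1.91% of all promoters) and CCAAT boxes in 24 of the 32 (75.0%, against 34.5%). By role, E2F sites were in 4 of 8 licensing promoters and 0 of 10 mitosis promoters, and CHR elements in 2 of 8 and 5 of 10. A match describes the letters in this window only, and no match says nothing about binding.

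In all groups the highest members were Tk1, which makes thymidine monophosphate for DNA synthesis, and Pcna, the clamp that holds polymerases on DNA. Tk1 averaged 20.7 TPM and Pcna 15.3 TPM over the 12 libraries. Rrm2, the regulated subunit of ribonucleotide reductase, averaged 7.999 TPM, the helicase subunit Mcm7 6.27 TPM and Tyms, which makes thymidylate, 6.03 TPM. The mitotic members lay lower, at 0.14 TPM for the checkpoint kinase Bub1 up to 2.85 TPM for the ubiquitin-conjugating enzyme Ube2c. The median member stood at 1.62 to 1.71 TPM in treated floxed libraries and 0.55 to 1.22 TPM in floxed control libraries. It stood at 1.48 to 1.68 TPM in treated knockout libraries and 0.31 to 0.35 TPM in knockout control libraries. Most members are thus near 1 TPM, where the log2(TPM + 1) scale used for the tests understates a change.

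**Figure D1:**
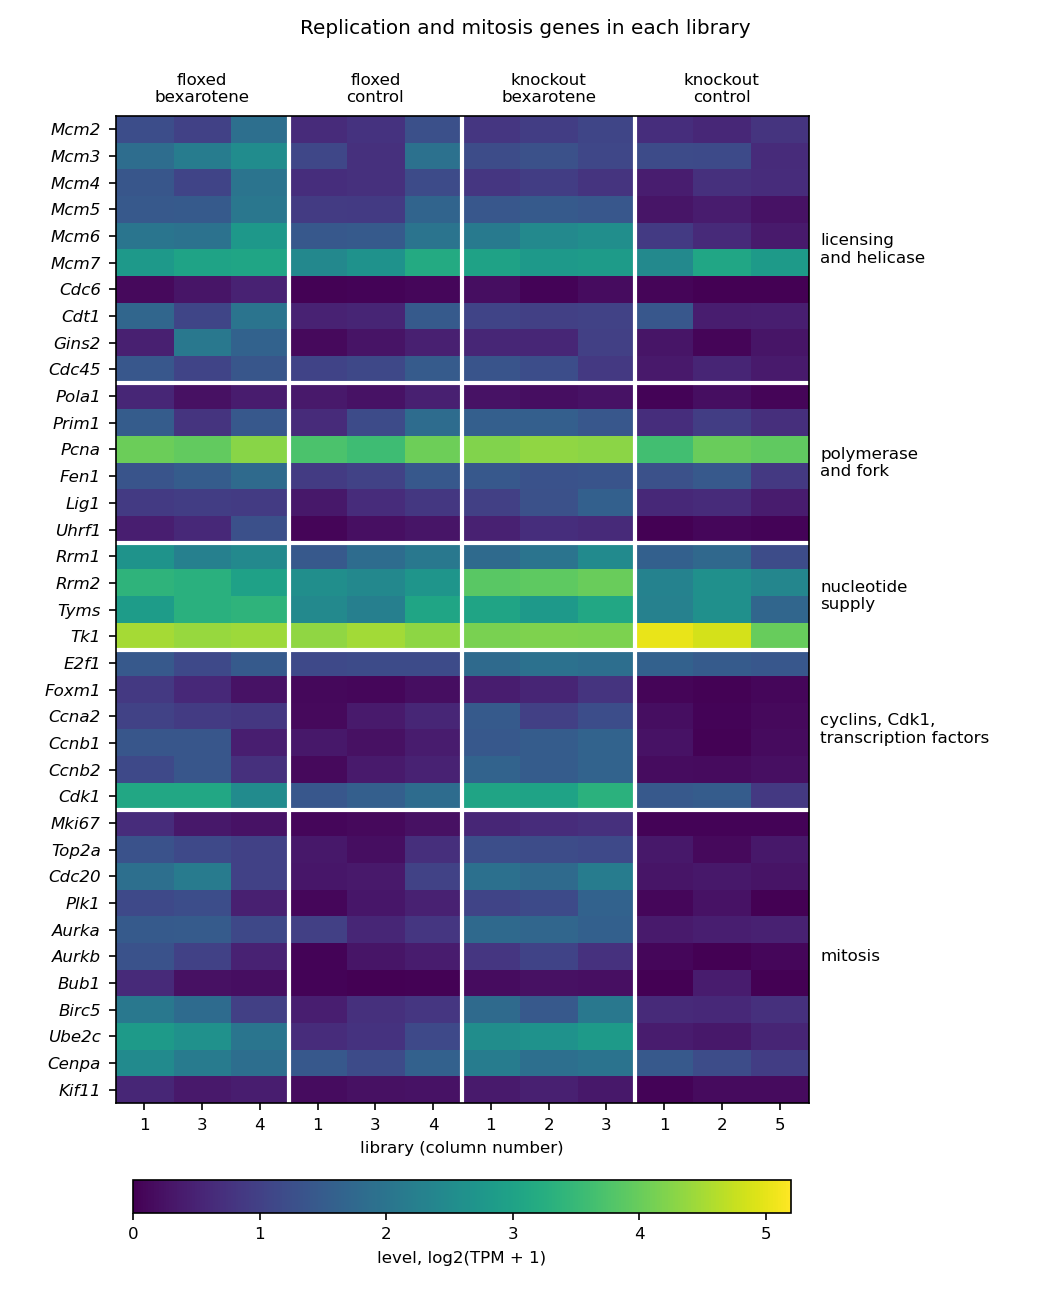
Level of the 37 members, as log2(TPM + 1), in each of the 12 libraries, grouped by role. Mitosis members and cyclins are brighter in both treated groups than in both control groups, while Tk1 and Pcna are bright in all 12 libraries.

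In floxed mice, bexarotene went with higher levels of most mitotic members, and 1 member passed the test. Ube2c, which works with the anaphase-promoting complex, had 6.14, 5.19 and 3.04 TPM in treated floxed libraries, against 0.57, 0.70 and 1.22 TPM in floxed control libraries. Every treated floxed library was above every floxed control library, and the ratio of the group means was 5.16. Ube2c rose by 1.56 ± 0.26 on the log2(TPM + 1) scale (SE; limma, Benjamini-Hochberg adjusted p = 0.0244 over all 11018 genes). It was the 1 of 28 tested members called higher, and 0 were called lower, while 1.84% of all tested genes were called higher and 0.281% lower. At an unadjusted p under 0.05, 14 of the 28 were higher and 0 lower, against 11.3% and 4.06% of all tested genes. Some of the 28 passed the filter through treated libraries only, so counts among them, here and in knockout mice, are description only. With all 12 libraries counted separately, which treats near-identical libraries as replicates, limma called 9 of the 28 higher against 7.57% of all tested genes: Ube2c, Cdk1, Rrm2, Ccnb2, Top2a, Cdc20, Aurka, Birc5 and Cenpa. The call on Ube2c was lost when treated floxed 1 or 3, floxed control 4, or the merged floxed control 1 and 3 was left out (adjusted p = 0.0908 to 0.199). Without both libraries numbered 4 its difference was 2.02 with an adjusted p of 0.0508, and over 17 alternatives its adjusted p ranged up to 0.199.

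Of the 11 mitosis members, Ube2c included, 9 had every treated floxed library above every floxed control library. Over all 37 members this held for 19 (51.4%), with 0 below, against 25.7% of all tested genes above and 9.59% below. These shares are not of like sets, here and in the comparisons below. That of members includes the 9 not tested, and that of all genes covers tested genes only. Among the 19, Cdc6, Lig1, Uhrf1, Foxm1, Mki67, Bub1 and Kif11 were not tested. Cdc20, which activates the anaphase-promoting complex, had 2.75, 3.45 and 1.02 TPM in treated floxed libraries and 0.25, 0.28 and 1.05 TPM in floxed control libraries. Its groups overlapped through the libraries numbered 4, which were 1.02 and 1.05 TPM (difference 1.00 ± 0.35, adjusted p = 0.214). Cenpa, the histone of centromeres, had 4.59, 3.50 and 2.70 TPM in treated floxed libraries and 1.70, 1.29 and 2.06 TPM in floxed control libraries (0.71 ± 0.23, adjusted p = 0.184). These groups did not overlap. Birc5, or survivin, a subunit of the chromosomal passenger complex, had 3.25, 2.52 and 0.98 TPM in treated floxed libraries and 0.36, 0.65 and 0.77 TPM in floxed control libraries, also without overlap. Top2a, which untangles chromosomes, and the spindle kinase Aurka likewise did not overlap, at 1.01 to 1.47 TPM and 1.19 to 1.81 TPM in treated floxed libraries against 0.14 to 0.62 TPM and 0.47 to 0.99 TPM in floxed control libraries. The kinase Plk1 overlapped, at 0.38 to 1.34 TPM in treated floxed libraries and 0.06 to 0.39 TPM in floxed control libraries. The passenger kinase Aurkb was at 0.41 to 1.47 TPM in treated floxed libraries and 0.04 to 0.32 TPM in floxed control libraries. The members below the test's limit were also higher, Mki67, the Ki-67 antigen of dividing cells, at 0.20 to 0.57 TPM in treated floxed libraries and 0.07 to 0.17 TPM in floxed control libraries. The spindle motor Kif11 was at 0.28 to 0.47 TPM in treated floxed libraries and 0.12 to 0.20 TPM in floxed control libraries. Bub1 had at most 0.53 TPM in treated floxed libraries and at most 0.04 TPM in floxed control libraries.

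Cdk1, the kinase that starts mitosis, had 7.65, 7.63 and 4.69 TPM in treated floxed libraries, against 1.65, 1.97 and 2.57 TPM in floxed control libraries. The groups did not overlap and the means differed by a ratio of 3.04, but the test was narrowly missed (1.25 ± 0.27, adjusted p = 0.0636). Ccnb2, a B-type cyclin, had 1.22, 1.63 and 0.65 TPM in treated floxed libraries and 0.09, 0.30 and 0.42 TPM in floxed control libraries. These did not overlap either (0.71 ± 0.23, adjusted p = 0.181). In this role group 5 of 6 members did not overlap and were higher in treated floxed libraries. Besides Cdk1 and Ccnb2 these were Ccna2, the cyclin of S and G2 phase, Ccnb1, and Foxm1, a transcription factor of mitotic genes. The exception was E2f1, which had 1.73, 1.21 and 1.76 TPM in treated floxed libraries and 1.21, 1.27 and 1.28 TPM in floxed control libraries. The treated floxed library numbered 3 was at the level of the floxed controls (0.18 ± 0.17, adjusted p = 0.687).

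Among the replication genes no member passed in floxed mice. Rrm2 had 9.39, 8.91 and 6.82 TPM in treated floxed libraries, against 4.94, 4.35 and 5.54 TPM in floxed control libraries. The groups did not overlap, with a ratio of means of 1.64, and the test did not pass (0.61 ± 0.18, adjusted p = 0.141). Rrm1, its partner subunit, had 3.80 to 5.41 TPM in treated floxed libraries and 1.74 to 3.25 TPM in floxed control libraries, also without overlap. Tyms had 6.31, 8.85 and 9.38 TPM in treated floxed libraries and 4.44, 3.73 and 7.37 TPM in floxed control libraries, and Tk1 had 21.63, 20.12 and 20.76 TPM in treated floxed libraries and 19.13, 21.43 and 19.06 TPM in floxed control libraries. Both overlapped (0.48 ± 0.31, adjusted p = 0.534 for Tyms and 0.08 ± 0.27, adjusted p = 0.928 for Tk1).

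Of the 10 licensing and helicase members, only Cdc6 had treated floxed libraries all above the floxed controls, at 0.10 to 0.41 TPM and 0.02 to 0.07 TPM. Mcm6 had 3.06, 2.90 and 5.88 TPM in treated floxed libraries and 1.68, 1.79 and 2.98 TPM in floxed control libraries. Mcm5 had 1.74, 1.76 and 3.19 TPM in treated floxed libraries and 0.87, 0.85 and 2.20 TPM in floxed control libraries. For both the highest library of each group was the one numbered 4, and the groups overlapped through it (0.53 ± 0.30, adjusted p = 0.449 and 0.38 ± 0.28, adjusted p = 0.590). Mcm7 had 6.01, 7.08 and 7.34 TPM in treated floxed libraries and 4.35, 5.26 and 8.03 TPM in floxed control libraries (0.10 ± 0.24, adjusted p = 0.885). The loading factor Cdt1 and the helicase subunits Mcm2, Mcm3 and Mcm4 had differences of 0.40 to 0.77 that did not pass. Gins2, a GINS subunit, had 0.38, 3.23 and 2.12 TPM in treated floxed libraries and 0.09, 0.21 and 0.38 TPM in floxed control libraries, and Cdc45 overlapped at 1.09 to 1.66 TPM in treated floxed libraries and 1.06 to 1.80 TPM in floxed control libraries.

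At the fork, Pcna had 15.39, 14.55 and 18.31 TPM in treated floxed libraries and 12.29, 10.98 and 15.70 TPM in floxed control libraries (0.23 ± 0.18, adjusted p = 0.622). Prim1, the primase subunit, had 1.87, 0.73 and 1.71 TPM in treated floxed libraries and 0.55, 1.27 and 2.59 TPM in floxed control libraries. Fen1, which trims Okazaki fragments, had 1.54, 1.85 and 2.47 TPM in treated floxed libraries and 0.87, 1.05 and 1.68 TPM in floxed control libraries. All 3 overlapped. Lig1, which joins Okazaki fragments, had 0.84, 0.93 and 0.88 TPM in treated floxed libraries and 0.27, 0.59 and 0.79 TPM in floxed control libraries, without overlap. Uhrf1, which carries DNA methylation through replication, was also without overlap at 0.35 to 1.40 TPM in treated floxed libraries and 0.05 to 0.22 TPM in floxed control libraries. Pola1, the catalytic subunit of polymerase alpha, overlapped at 0.18 to 0.47 TPM in treated floxed libraries and 0.19 to 0.38 TPM in floxed control libraries. Over all 37 members the median difference in floxed mice was 0.53, against 0.06 over all tested genes, with 35 of 37 above 0. It was 0.30 without the merged floxed controls 1 and 3.

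In knockout mice 2 members passed the test under bexarotene, Ube2c of mitosis and Rrm2 of nucleotide supply. The median difference was 0.94 over mitosis members, 1.26 over cyclins and factors, 0.70 over nucleotide genes, 0.49 over fork genes and 0.27 over licensing genes. In floxed mice these medians were 0.65, 0.61, 0.53, 0.23 and 0.47 in the same order. Ube2c had 4.82, 5.28 and 6.15 TPM in treated knockout libraries, against 0.31, 0.27 and 0.45 TPM in knockout control libraries. The groups stood far apart, with a ratio of means of 15.8, and Ube2c rose by 2.26 ± 0.33 (limma, adjusted p = 0.0348). Rrm2 had 13.53, 14.01 and 15.23 TPM in treated knockout libraries, against 3.95, 5.08 and 4.24 TPM in knockout control libraries. Every treated library was above every control, with a ratio of means of 3.22, and Rrm2 rose by 1.50 ± 0.22 (adjusted p = 0.0352). These 2 of 28 were called higher and 0 lower, while 0.417% of all tested genes were called higher and 0.0998% lower. At an unadjusted p under 0.05, 16 of the 28 were higher and 0 lower, against 6.79% and 2.38% of all tested genes. With the 12 libraries counted separately limma called 16 of the 28 higher, against 7.29% of all tested genes: Rrm2, Cdk1, Mcm5, Mcm6, Cdc45, Ccna2, Ccnb1, Ccnb2 and the 8 tested mitosis members, Ube2c included. Both calls were lost when knockout control 1 or 2, treated floxed 1 or 3, floxed control 4 or the merged floxed controls were left out (adjusted p = 0.0543 to 0.118 for Ube2c and 0.0638 to 0.0907 for Rrm2). Over 17 alternatives the adjusted p ranged up to 0.118 for Ube2c and 0.298 for Rrm2. Without knockout control 5 both held, and Cdk1 also passed (1.65, adjusted p = 0.0451).

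Across the 37 members, 30 (81.1%) had every treated knockout library above every knockout control library and 0 were below, against 20.0% of all tested genes above and 8.5% below. The 3 treated libraries count as 1 sample, so such a separation is easier to reach here than between 3 separate samples. The median difference was 0.74 over the 37 members, with 36 above 0, and 0.10 over all tested genes. By role, 10 of 11 mitosis members, 6 of 6 cyclins and factors, 3 of 4 nucleotide genes, 5 of 6 fork genes and 6 of 10 licensing genes did not overlap.

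**Figure D2:**
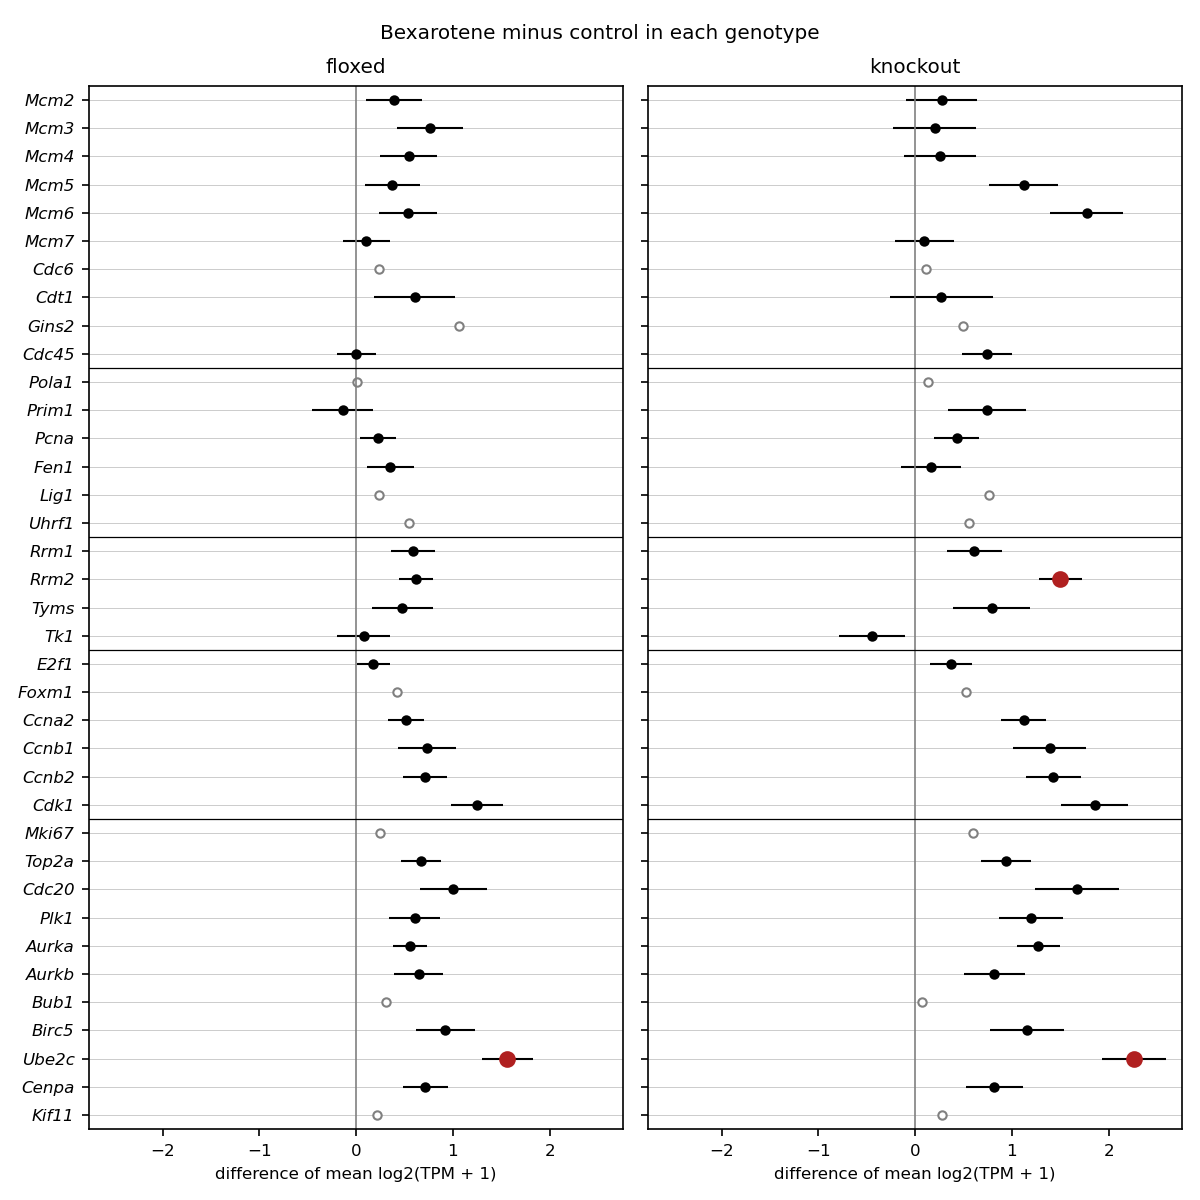
Difference between bexarotene and control in mean log2(TPM + 1) for each member, in floxed and in knockout mice, with the SE from limma as bars. Red marks Ube2c in both genotypes and Rrm2 in knockout mice, which passed an adjusted p of 0.05, and open grey circles are the 9 members not tested, shown without an SE.

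Among mitosis members in knockout mice, Cdc20 had 2.78, 2.48 and 3.54 TPM in treated libraries and 0.23, 0.26 and 0.21 TPM in control libraries. These were far apart and had a ratio of means of 12.6, with a difference of 1.67 ± 0.44 and an adjusted p of 0.211. Cenpa had 3.55, 2.72 and 2.92 TPM in treated knockout libraries and 1.74, 1.31 and 0.93 TPM in knockout control libraries, without overlap (0.82 ± 0.29, adjusted p = 0.412). Plk1 was at 1.09 to 2.09 TPM in treated knockout libraries and 0.00 to 0.20 TPM in knockout control libraries, and Aurka at 2.04 to 2.43 TPM in treated knockout libraries and 0.30 to 0.39 TPM in knockout control libraries. Birc5 had 1.72 to 3.26 TPM in treated knockout libraries and 0.51 to 0.66 TPM in knockout control libraries. Top2a had 1.22 to 1.39 TPM in treated knockout libraries and 0.09 to 0.26 TPM in knockout control libraries. In each of these the groups were apart. Mki67 was at 0.48 to 0.64 TPM in treated knockout libraries and 0.03 to 0.04 TPM in knockout control libraries. The exception was Bub1, at 0.13 to 0.17 TPM in treated knockout libraries and 0.00 to 0.31 TPM in knockout control libraries.

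Cdk1 had 7.17, 7.08 and 8.93 TPM in treated knockout libraries, against 1.72, 1.86 and 0.81 TPM in knockout control libraries. The groups were apart, with a ratio of means of 5.28, and the test did not pass (1.85 ± 0.34, adjusted p = 0.0763). Ccnb2 had 2.17, 1.85 and 2.14 TPM in treated knockout libraries and 0.13, 0.11 and 0.16 TPM in knockout control libraries (1.43 ± 0.29, adjusted p = 0.102). Ccnb1 was at 1.68 to 2.14 TPM in treated knockout libraries and 0.02 to 0.19 TPM in knockout control libraries, and Ccna2 at 0.99 to 1.78 TPM in treated knockout libraries and 0.03 to 0.15 TPM in knockout control libraries. All 3 cyclins were apart by ratios of means of 15.2 to 17.7. E2f1 had 2.47, 2.86 and 2.68 TPM in treated knockout libraries and 2.07, 1.82 and 1.65 TPM in knockout control libraries, a smaller step without overlap (0.37 ± 0.21, adjusted p = 0.698). Foxm1 was at 0.34 to 0.72 TPM in treated knockout libraries and 0.02 to 0.07 TPM in knockout control libraries.

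Among helicase subunits, Mcm6 had 3.34, 4.48 and 4.96 TPM in treated knockout libraries and 0.84, 0.54 and 0.29 TPM in knockout control libraries. Mcm5 had 1.66, 1.77 and 1.67 TPM in treated knockout libraries and 0.22, 0.31 and 0.20 TPM in knockout control libraries. Both were apart, with ratios of means of 7.65 and 6.99, and neither passed (1.77 ± 0.38, adjusted p = 0.119 and 1.12 ± 0.36, adjusted p = 0.323). Cdc45, which joins the helicase as it starts, was at 0.83 to 1.54 TPM in treated knockout libraries and 0.28 to 0.45 TPM in knockout control libraries. Other helicase subunits had smaller steps. Mcm3 had 1.30, 1.44 and 1.15 TPM in treated knockout libraries and 1.28, 1.24 and 0.56 TPM in knockout control libraries. Mcm7 had 7.03, 5.90 and 6.21 TPM in treated knockout libraries and 4.47, 7.41 and 6.16 TPM in knockout control libraries. Mcm3 and Mcm7 overlapped, with differences of 0.20 ± 0.43 and 0.10 ± 0.30 (adjusted p = 0.939 and 0.962). Mcm2 and Mcm4 were apart by small steps, with ratios of means of 1.55 each. The MCM proteins work as a ring of 6 different subunits, and their RNAs here had differences of 0.10 to 1.77.

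Tk1 went the other way from the other nucleotide genes in knockout mice. It had 16.89, 17.36 and 17.18 TPM in treated knockout libraries and 31.43, 28.18 and 14.96 TPM in knockout control libraries, where library 5 was lower than the treated libraries. The difference was -0.45 ± 0.34 (adjusted p = 0.804), and without knockout control 5 it fell by 0.76 with an adjusted p of 0.0486 (over 17 alternatives up to 1). Tyms had 7.17, 6.03 and 7.74 TPM in treated knockout libraries and 3.88, 5.14 and 2.27 TPM in knockout control libraries, without overlap (0.79 ± 0.40, adjusted p = 0.625). Rrm1 had 2.47 to 4.62 TPM in treated knockout libraries and 1.30 to 2.37 TPM in knockout control libraries. At the fork, Pcna had 17.64, 19.13 and 18.57 TPM in treated knockout libraries and 11.32, 15.03 and 14.27 TPM in knockout control libraries (0.43 ± 0.23, adjusted p = 0.664). Prim1 had 1.98, 1.96 and 1.67 TPM in treated knockout libraries and 0.61, 0.92 and 0.63 TPM in knockout control libraries. Lig1 had 0.97, 1.43 and 2.04 TPM in treated knockout libraries and 0.52, 0.55 and 0.31 TPM in knockout control libraries. These 3 were apart, while Fen1 overlapped at 1.68, 1.48 and 1.55 TPM in treated knockout libraries and 1.45, 1.74 and 0.81 TPM in knockout control libraries.

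**Figure D3:**
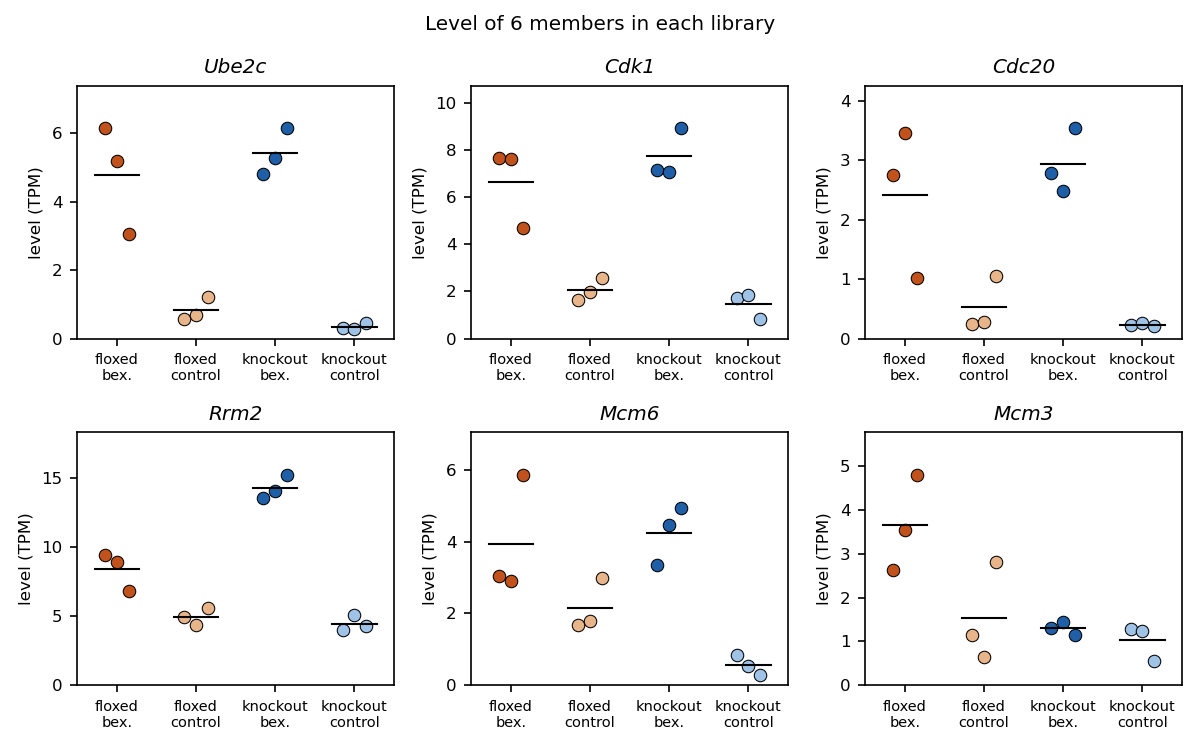
Level in TPM of Ube2c, Cdk1, Cdc20, Rrm2, Mcm6 and Mcm3 in each library, with the mean of the 3 libraries of a group as a line. Rrm2 is highest in treated knockout libraries (13.53 to 15.23 TPM). Mcm3 has its highest group mean in treated floxed libraries (2.62 to 4.81 TPM), which overlap floxed control libraries (0.64 to 2.82 TPM).

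Other measures moved with these groups. Summed over 12 macrophage markers, treated knockout libraries had 68.1 to 76.5 TPM and knockout control libraries 14.2 to 31.6 TPM, and 12 of 12 markers were higher. In floxed mice the sum was 18.3, 21.4 and 63.1 TPM in treated libraries and 23.7, 27.2 and 83.6 TPM in control libraries, with 12 of 12 lower. None of the 10 tested macrophage markers was called in limma in either bexarotene comparison. In knockout mice 6 of them were higher at an unadjusted p under 0.05, against 6.79% of all tested genes. There 6 were also called higher with the 12 libraries counted separately, against 7.29% of all tested genes. In bulk RNA fewer cells of a type and less RNA per cell cannot be told apart. The part of macrophages and other cells in the members' levels was not tested. In treated floxed mice the 2 libraries with the lowest macrophage sums had the higher mitosis levels: the mean log2(TPM + 1) of the 11 mitosis members was 1.49, 1.32 and 0.90 in treated libraries and 0.42, 0.43 and 0.69 in control libraries. The licensing members had 1.45, 1.52 and 1.99 in treated floxed libraries and 0.89, 0.92 and 1.48 in floxed control libraries. The libraries numbered 4 were thus the highest of their group in licensing and macrophage levels. In mitosis members treated floxed 4 was the lowest of its group, while floxed control 4 was the highest of its group. Without both, the median difference over the 37 members was 0.63, against 0.53 with them.

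Erythroid markers summed to 647 to 743 TPM in treated knockout libraries and 214 to 414 TPM in knockout control libraries, and to 237 to 626 TPM in treated floxed libraries and 213 to 692 TPM in floxed control libraries. The globins Hba-a1, Hba-a2, Hbb-bs and Hbb-bt and the heme enzyme Alas2 were at 0 in no library, with highest levels of 30.7 to 281 TPM, while Slc4a1, a membrane protein of red cells, was at 0 in 9 of the 12. Alas2 was called higher in knockout mice without the drug (limma, 1.15 ± 0.14, adjusted p = 0.00402, up to 0.0538 over 16 alternatives). It was the 1 of 7 erythroid markers that was higher in that comparison, while 5 were lower, and the median difference over the list was -1.12. Lymphocyte markers summed to 6.18 to 9.53 TPM in treated knockout libraries and 2.35 to 5.25 TPM in knockout control libraries, without overlap. By marker, 7 of 11 were higher and 4 lower there. Their mean log2(TPM + 1) overlapped, at 0.50 to 0.69 in treated knockout and 0.25 to 0.51 in knockout control libraries. In floxed mice lymphocyte markers summed to 3.20 to 10.7 TPM in treated libraries and 6.05 to 13.2 TPM in control libraries, with 10 of 11 markers lower. Ms4a1, which marks B cells, was at 0 in 3 libraries. Endothelial markers summed to 11.99 to 20.1 TPM in treated floxed libraries and 16.5 to 26.3 TPM in floxed control libraries, and to 21.0 to 21.9 TPM in treated knockout libraries and 18.7 to 25.5 TPM in knockout control libraries. Neutrophil markers summed to 5.42 to 13.4 TPM in treated floxed and 16.2 to 55.1 TPM in floxed control libraries. They summed to 8.04 to 10.3 TPM in treated knockout and 11.9 to 37.6 TPM in knockout control libraries. Their mean log2(TPM + 1) was also lower in treated floxed (0.71 to 1.24) than in floxed control libraries (1.31 to 2.36). In knockout mice it overlapped, at 0.96 to 1.07 in treated and 1.01 to 1.80 in control libraries. The part of these cells in the members' levels was not tested.

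Clock genes also differed between libraries. The mean log2 level of 10 evening genes less that of 5 morning genes was 1.22, 1.20 and 1.96 in treated floxed libraries and -0.95, -1.003 and -1.50 in floxed control libraries. It was 0.70, 0.64 and 0.62 in treated knockout libraries and 1.21, 1.11 and -1.96 in knockout control libraries. In floxed mice the sign of this measure follows the treatment, so the 2 cannot be told apart there. Among knockout controls, library 5 differed in sign from libraries 1 and 2, and it also had the lowest summed level of the 37 members, 54.3 TPM against 73.0 and 78.0 TPM. Its nucleotide genes summed to 22.8 TPM, against 41.3 and 40.8 TPM in libraries 1 and 2. The mean log2 level of licensing members was 0.67 in library 5 and 0.80 and 0.76 in libraries 1 and 2. That of mitosis members was 0.33 in library 5 and 0.34 and 0.35 in libraries 1 and 2.

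Of the cell cycle control genes, Ccnd1, the D-type cyclin that takes cells out of G1, had 42.50, 43.69 and 41.30 TPM in treated floxed libraries and 1.62, 1.24 and 2.26 TPM in floxed control libraries. It had 2.05, 2.02 and 2.06 TPM in treated knockout libraries and 0.70, 0.92 and 0.49 TPM in knockout control libraries. Ccnd1 rose in floxed mice (3.95 ± 0.18, adjusted p = 4.67e-05) and was not called in knockout mice (0.84 ± 0.22, adjusted p = 0.211), and the difference between these effects itself passed (-3.10 ± 0.28, adjusted p = 0.00846). The mean mitosis level was 1.30 to 1.41 in treated knockout libraries, inside the 0.90 to 1.49 of treated floxed libraries. The part of Ccnd1 in the members' levels was not tested. Cdkn1a, the p21 inhibitor of cyclin-dependent kinases, had 27.08, 26.61 and 6.38 TPM in treated floxed libraries and 73.96, 73.49 and 72.64 TPM in floxed control libraries. It had 70.44, 63.99 and 69.74 TPM in treated knockout libraries and 3.08, 1.99 and 71.86 TPM in knockout control libraries, where library 5 was far above the other 2. Cdkn1a was not called in any comparison (adjusted p = 0.279 to 0.775). Wee1, the kinase that holds Cdk1 inactive, had 6.16, 5.50 and 6.16 TPM in treated floxed libraries and 1.44, 1.35 and 0.91 TPM in floxed control libraries. It had 0.59, 0.67 and 0.58 TPM in treated knockout libraries and 4.85, 5.46 and 0.44 TPM in knockout control libraries, and was not called either (adjusted p = 0.200 to 0.699). In knockout controls, Cdkn1a and Wee1 thus split library 5 from libraries 1 and 2, as the clock measure did. The part of the clock in these values was not tested.

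**Figure D4:**
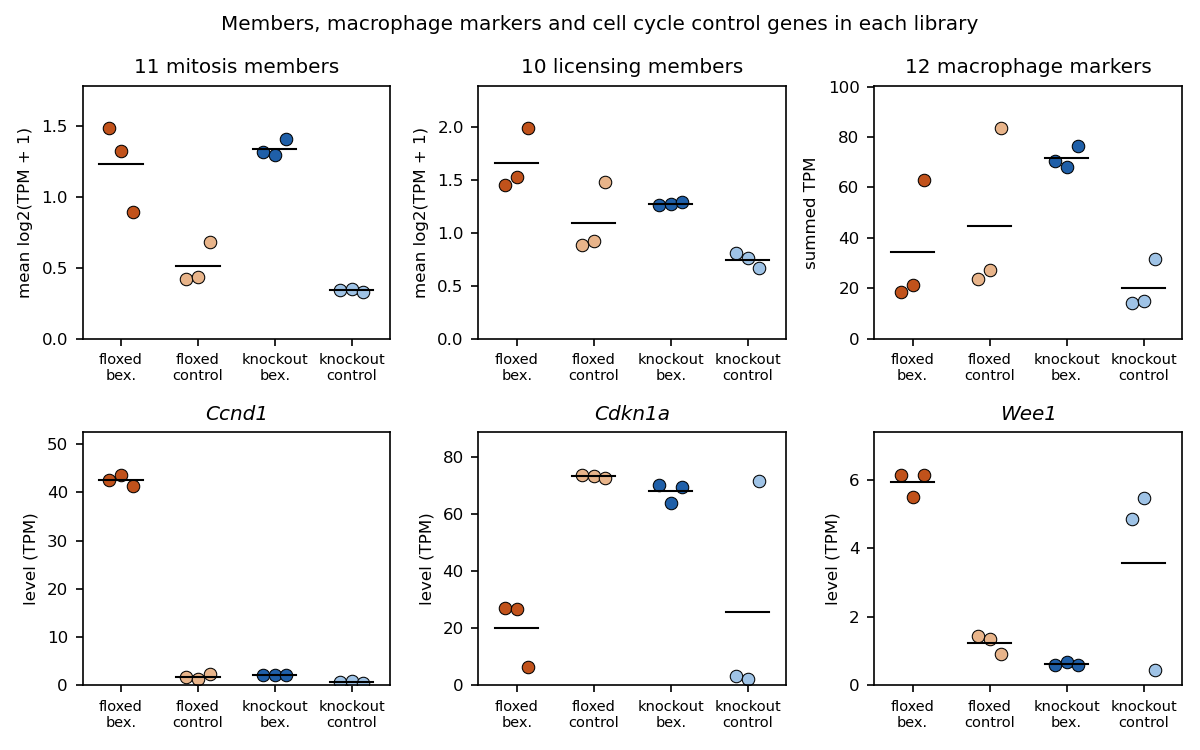
Mean log2(TPM + 1) of the 11 mitosis and 10 licensing members, summed TPM of 12 macrophage markers, and TPM of Ccnd1, Cdkn1a and Wee1 in each library, with the mean of the 3 libraries of a group as a line. The mitosis level is 0.90 to 1.49 in treated floxed and 1.30 to 1.41 in treated knockout libraries, and Ccnd1 is at 41.30 to 43.69 TPM in treated floxed and at most 2.26 TPM in all other libraries.

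Without the drug, most members were lower in knockout mice, but none passed the test. Limma called 0 of 28, while 3.76% of all tested genes were called higher or lower, and at an unadjusted p under 0.05 there were 3 lower and 0 higher, against 7.81% and 9.21% of all tested genes. With the 12 libraries counted separately the same 3 were called lower, Mcm5, Mcm6 and Cdc45, against 5.11% of all tested genes called lower. Mcm6 had 0.84, 0.54 and 0.29 TPM in knockout control libraries and 1.68, 1.79 and 2.98 TPM in floxed control libraries, and Mcm5 had 0.22, 0.31 and 0.20 TPM in knockout control libraries and 0.87, 0.85 and 2.20 TPM in floxed control libraries. Neither overlapped (-1.10 ± 0.30, adjusted p = 0.0953 and -0.97 ± 0.28, adjusted p = 0.114). Cdc45 was at 0.28 to 0.45 TPM in knockout control libraries and 1.06 to 1.80 TPM in floxed control libraries, again without overlap (-0.86 ± 0.20, adjusted p = 0.0587). Ube2c had 0.31, 0.27 and 0.45 TPM in knockout control libraries and 0.57, 0.70 and 1.22 TPM in floxed control libraries, also apart (-0.51 ± 0.26, adjusted p = 0.382). In all, 8 of 37 members had every knockout control library below every floxed control library (21.6%, against 11.1% of all tested genes). The others were Pola1, Mki67, Aurka and Kif11, of which Pola1, Mki67 and Kif11 were not tested, so these shares are not of like sets. E2f1 alone was above, at 1.65 to 2.07 TPM in knockout control libraries and 1.21 to 1.28 TPM in floxed control libraries, where 14.2% of all tested genes were above. The median over the 37 was -0.22, with 33 below 0, against 0.004 over all tested genes. It was -0.08 without floxed control 4 and -0.36 without the merged floxed controls 1 and 3, and -0.61 with a pseudocount of 0.1 in place of 1. Macrophage markers were 12 of 12 lower in the mean of knockout control libraries, but their sums overlapped. They summed to 14.2 to 31.6 TPM in knockout control and 23.7 to 83.6 TPM in floxed control libraries, where floxed control 4 was highest. Their part in the members' levels was not tested. Tk1 passed only without knockout control 5 (0.57, adjusted p = 0.0307).

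Under bexarotene no member passed the test between the genotypes. Limma called 0 of 28 members, while 1.93% of all tested genes were called. At an unadjusted p under 0.05, 2 members were higher and 1 lower, against 5.91% and 5.88% of all tested genes. These were also the calls with the 12 libraries counted separately, Rrm2 and E2f1 higher and Mcm3 lower, against 7.22% of all tested genes called higher and 7.21% lower. Rrm2 had 13.53, 14.01 and 15.23 TPM in treated knockout libraries and 9.39, 8.91 and 6.82 TPM in treated floxed libraries, without overlap (0.71 ± 0.22, adjusted p = 0.203). E2f1 had 2.47, 2.86 and 2.68 TPM in treated knockout libraries and 1.73, 1.21 and 1.76 TPM in treated floxed libraries, also apart (0.52 ± 0.21, adjusted p = 0.379). Mcm3 lay the other way, at 1.30, 1.44 and 1.15 TPM in treated knockout libraries and 2.62, 3.54 and 4.81 TPM in treated floxed libraries (-0.99 ± 0.43, adjusted p = 0.414). Of the 37 members, 6 were above without overlap (16.2%, against 23.2% of all tested genes) and 4 below (10.8%, against 19.2%). Those above were Rrm2, E2f1, Lig1, Ccnb1, Ccnb2 and Aurka, and those below were Mcm3, Mcm4, Cdt1 and Tk1. By role, the median was -0.33 over 10 licensing members and 0.39 over 6 cyclins and factors, all 6 of which were above 0, and over all 37 it was -0.05, against 0.04 over all tested genes. Macrophage markers were 12 of 12 higher in treated knockout libraries than in treated floxed libraries, and their part in this was not tested.

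**Figure D5:**
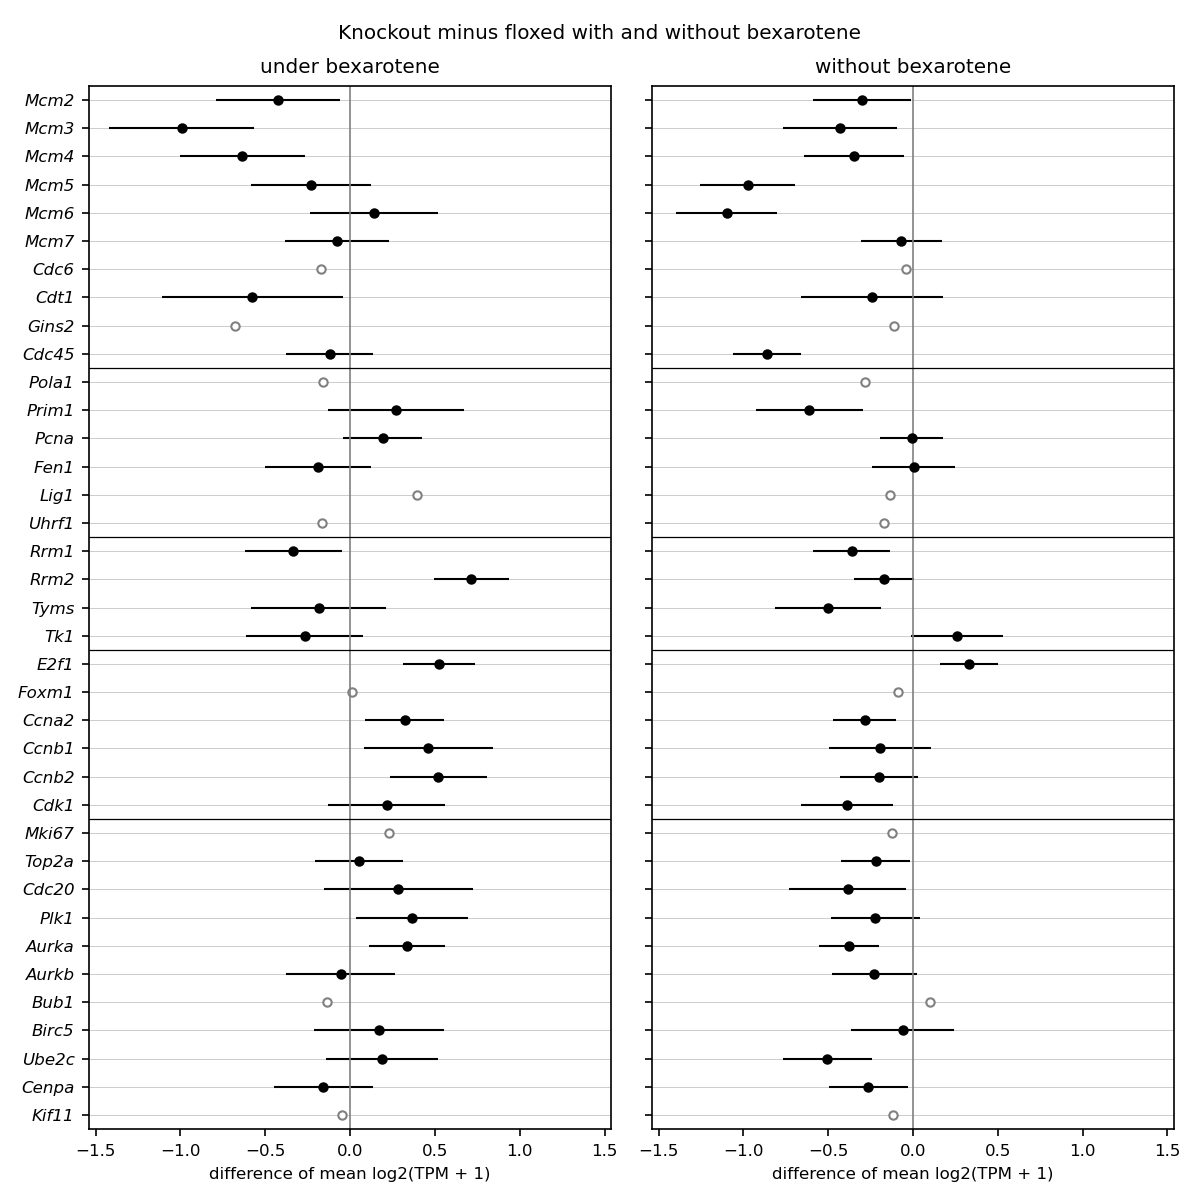
Difference between knockout and floxed mice in mean log2(TPM + 1) for each member, under bexarotene and without it, with the SE from limma as bars and the 9 untested members as open grey circles. Mcm6 is lowest without the drug (-1.10) and near 0 under it (0.14), while Mcm3 is lowest under bexarotene (-0.99).

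The difference between the bexarotene effects of the 2 genotypes was not called for any member. Limma called 0 of 28, against 0.2% of all tested genes, with 3 higher in knockout mice at an unadjusted p under 0.05 (4.71% of all tested genes), and 1 called, Rrm2, with the 12 libraries counted separately (2.59% of all tested genes were called higher). The largest differences were Mcm6 at 1.24 ± 0.48 (adjusted p = 0.483), Rrm2 at 0.88 ± 0.28 (adjusted p = 0.380) and Prim1 at 0.88 ± 0.51 (adjusted p = 0.654). For Ube2c the difference was 0.70 ± 0.42 (adjusted p = 0.680), so its effects of 1.56 in floxed and 2.26 in knockout mice were not shown to differ, nor shown to be alike. The median was 0.20 over the 37 members and 0.02 over all tested genes. Over the licensing members it was -0.12, with 7 of 10 below 0. The median over the 37 was 0.06 without floxed control 4, 0.04 without both libraries numbered 4, 0.35 without the merged floxed controls 1 and 3, and 0.72 with a pseudocount of 0.1.

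Further replication and mitosis genes were taken from lists of names. Of 39 other replication genes, 32 were tested and limma called 0 in each of the 5 comparisons. At an unadjusted p under 0.05 there were 6 of 32 higher in floxed mice under bexarotene (11.3% of all tested genes) and 4 of 32 higher in knockout mice (6.79% of all). With the 12 libraries counted separately 2 and 3 of them were called, where 7.57% and 7.29% of all tested genes were. For knockout without drug the unadjusted counts were 1 higher and 5 lower, against 9.21% and 7.81% of all tested genes. For knockout under bexarotene there were 0, where 5.91% of all tested genes were higher and 5.88% lower. For the difference of the bexarotene effects 3 were higher, against 4.71% of all tested genes. The highest of them was Mcm10, which loads polymerase alpha, at 18.88, 15.53 and 21.93 TPM in treated floxed libraries and 30.83, 30.67 and 32.86 TPM in floxed control libraries. Mcm10 had 27.90, 28.74 and 29.71 TPM in treated knockout libraries and 70.53, 75.01 and 21.94 TPM in knockout control libraries, so its level, unlike that of most members, was not higher with bexarotene (-0.74 ± 0.46, adjusted p = 0.508 in floxed and -0.75 ± 0.59, adjusted p = 0.810 in knockout mice). Rnaseh2a, a subunit of the enzyme that removes ribonucleotides from DNA, was at 13.43 to 21.90 TPM in treated floxed libraries and 13.73 to 19.13 TPM in floxed control libraries. It was at 8.73 to 13.49 TPM in treated knockout libraries and 13.07 to 29.73 TPM in knockout control libraries.

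Of 46 other mitosis genes, 17 were tested. Mad2l1, a spindle checkpoint protein, was the 1 called higher under bexarotene in knockout mice (0.417% of all tested genes), with 3.28, 2.73 and 2.85 TPM in treated libraries and 0.64, 0.67 and 0.55 TPM in control libraries (1.29 ± 0.19, adjusted p = 0.0348, up to 0.201 over 17 alternatives). It had 2.30, 2.20 and 2.04 TPM in treated floxed libraries and 0.98, 1.18 and 1.15 TPM in floxed control libraries, apart but not called (0.59 ± 0.15, adjusted p = 0.103). Without the drug, 2 of the 17 fell in knockout mice, where 1.92% of all tested genes were called lower. Spc25, a kinetochore subunit, had 0.55, 0.54 and 0.54 TPM in knockout control libraries and 2.24, 1.73 and 2.74 TPM in floxed control libraries (-1.11 ± 0.16, adjusted p = 0.00946, up to 0.176 over 16 alternatives). Cks2, a small subunit of cyclin-dependent kinases, had 9.64, 12.69 and 14.92 TPM in knockout control libraries and 22.86, 22.69 and 26.85 TPM in floxed control libraries (-0.96 ± 0.19, adjusted p = 0.0315, up to 0.353 over 16 alternatives). Of 21 tested genes of G1 and cell cycle control, Ccnd1 was the one called, higher with bexarotene in floxed mice and, under bexarotene, lower in knockout than in floxed mice (-3.84 ± 0.22, adjusted p = 3.59e-04). Of all 11018 tested genes, 1010 to 1875 had an unadjusted p under 0.05 in a comparison. With the 12 libraries counted separately, 285 to 834 of them were called higher and 228 to 794 lower. Of 13 tested p53 targets limma called 0 in each comparison, with 1 to 4 at an unadjusted p under 0.05. At most 1 of the targets was called with the 12 libraries counted separately. Besides Cdkn1a, the highest of them was Trp53inp1, a stress-induced p53 target, at 20.69 to 24.54 TPM in treated knockout libraries and 2.73, 6.24 and 51.69 TPM in knockout control libraries, where library 5 again stood apart.

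Reads of some members can be shared with other loci. Compared with GENCODE M21 transcripts, 10 members have a processed pseudogene with at least 90% identity over at least 300 bases: Ccnb1, Cdc20, Mcm4, Mcm7, Pcna, Plk1, Rrm2, Tyms, Ube2c and Uhrf1. A further 3, Ccna2, Fen1 and Gins2, overlap a transcript on the opposite strand, and whether counting used the strand is not stated. Their levels are uncertain to that extent.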

How the data were processed

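Hepatocyte RNA of 12 mouse samples was isolated with TRIzol and DNase I, and an Illumina stranded mRNA kit was used for sequencing libraries, per the labels' protocols. Reads were processed with fastp, HISAT2 and StringTie, per the submitters' processing notes, whose versions, genome build and strand setting are not given in the sources used here. A table of TPM per gene, with 1 column per library, was deposited by the authors, and 21810 of 26748 identifiers were given a symbol. Columns number the libraries differently from the sample titles, so they were assigned to groups only.

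Within each group, the spread of log2 differences beyond counting noise was estimated in 20 expression classes, leaving out genes under 10 TPM, and libraries under 0.1 were averaged. The test ran on log2(TPM + 1) of genes that reached 1 TPM in 3 or more libraries, with limma 3.58.1 (R 4.3.3) and a mean-variance trend, on 9 samples in 4 groups, with 5 residual degrees of freedom. Benjamini-Hochberg adjustment ran over all 11018 genes, and a gene is called, or said to have risen or fallen, at an adjusted p under 0.05. Differences are on the log2(TPM + 1) scale, with the SE of the fit, and ratios are of mean TPM over samples. Pseudogene copies were found with minimap2 by aligning transcripts.

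All 37 members may be named. Full values are given for called members, and in each role for the 2 with the highest mean TPM and the 2 with the largest difference. Other members are mostly given by their range. Outside this rule, Birc5, Gins2 and Mcm3 are given library by library in some comparisons, and Mcm3 was also drawn in a figure. In the other lists, Ccnd1, Cdkn1a and Wee1 are always named, otherwise called genes or, with none, the 2 of highest TPM. Members and lists were chosen with earlier results of these data known. Alternatives were all 12 libraries, a pseudocount of 0.1, other filters, quantile normalization, no trend, only the groups compared, a replicate block and leaving out each sample.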

Additional observations from a re-analysis of the deposited data

Results flagged for a closer look

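Ccnd1 responded to bexarotene differently in the 2 genotypes. The effect in knockout mice minus that in floxed mice was -3.10 ± 0.28 on the log2(TPM + 1) scale (limma, adjusted p = 0.00846, with a range over 15 alternatives up to 0.0796).

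Aurka lay on opposite sides of the floxed libraries with and without the drug. Such a separation is common: under bexarotene 23.2% of all tested genes had every knockout library above every floxed one. Without the drug 11.1% had every knockout library below. The treated knockout libraries count as 1 sample. For Aurka the difference between knockout and floxed mice was 0.34 under bexarotene and -0.38 without it. The libraries did not overlap in either comparison, and neither difference was called. The difference of these 2 was 0.71 ± 0.29 and did not pass in limma (adjusted p = 0.494).

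Cdkn1a did the same, with a difference between knockout and floxed mice of 1.95 under bexarotene and -2.95 without it. The difference of these 2 was 4.90 ± 2.02 (limma, adjusted p = 0.504), and knockout control 5, at 71.86 TPM, stood close to the floxed controls.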

How the results depend on the processing

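No called member changed direction under the alternatives run, but the number of members called depended on the choices. With the 12 libraries counted separately it was 9 under bexarotene in floxed mice, 16 under bexarotene in knockout mice, 3 for knockout without drug, 3 for knockout under bexarotene and 1 for the difference of the bexarotene effects, against 1, 2, 0, 0 and 0 with 9 samples. With no filter it was 0 in floxed and 5 in knockout mice under bexarotene, and with a fit to only the compared groups it was 2 in floxed and 0 in knockout mice. Quantile normalization gave 1 in knockout mice under bexarotene and 1 for knockout without drug, a pseudocount of 0.1 gave 2 for knockout without drug, and a fit without the trend gave 1 there. Without both floxed libraries numbered 4, an alternative added after seeing the data, it was 0 in floxed and 1 in knockout mice under bexarotene. Leaving out each sample gave 0 to 3 in floxed and 0 to 5 in knockout mice under bexarotene, 0 to 1 for knockout without drug, 0 to 0 for knockout under bexarotene and 0 to 0 for the difference. The cause was not tested. With a replicate block limma called 4 in floxed and 4 in knockout mice under bexarotene and 2 for knockout under bexarotene. Deviations from the group mean had correlations of 0.036, 0.005 and 0.143 between same-numbered floxed libraries. Between differently numbered ones they were -0.16 to 0.161. The numbers were not taken as pairs, but so few libraries cannot settle whether they are. In both floxed groups the library numbered 4 had the highest macrophage and licensing levels. No paired analysis was possible for knockout without drug because fewer than 2 numbers are shared. The pseudocount of 0.1 moved the median difference of the 37 members under bexarotene to 0.96 in floxed and 1.55 in knockout mice, against 0.53 and 0.74. Over all tested genes the number called ranged over the alternatives between 32 and 1242 in floxed and between 6 and 1105 in knockout mice under bexarotene. It ranged between 80 and 1302 for knockout without drug, 103 and 1911 for knockout under bexarotene, and 0 and 689 for the difference. A count of members under a single setting therefore cannot be read as particular to the members. Members near 1 TPM rest on few reads, and without counts this limit cannot be stated as an interval.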
